A study of Rattus norvegicus with 6 samples.

Results

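Laminin chains, integrin subunits and the proteins that link them into the basement membrane were followed in cultured rat testis cells, labelled as Sertoli cells, from 21-day-old and 9-day-old rats. Members were taken by gene symbol (laminin chains Lama, Lamb and Lamc, integrin subunits Itga and Itgb, and Nid1, Nid2, Hspg2, Agrn and Dag1), with no measured value entering the rule. This gave 30 of the 14506 genes with a probe set of their own: 7 laminin chains, 12 integrin alpha subunits, 8 integrin beta subunits, the integrin-like gene Itgbl1 and the linker genes Nid2 and Agrn. RefSeq lists 43 genes under the rule, and the other 13 were not analysed here. They include Lama2, Lama4, Lamb1, Nid1, Hspg2, Dag1, Itga2b, Itga3, Itga8, Itga9, Itgav and Itgax, so the alpha chain of merosin, dystroglycan, perlecan and the alpha subunit that pairs with Itgb3, Itgb5, Itgb6 and Itgb8 are not described.

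Each age had 3 Affymetrix arrays of total RNA, 6 in all, numbered 1 to 3 in the titles. The labels give the strain of neither group, no genotype and no treatment that differs between them. At both ages testes were decapsulated and digested, and the cells grew in DMEM/F12 containing 10% fetal bovine serum, which was renewed after a further 24 hours as a purification step. The labels place the older cells after the phase of Sertoli cell proliferation, at puberty, and the younger ones within that phase. They do not say whether the arrays of an age came from separate rats or cultures, so a p-value measures only the spread between these arrays, which may be technical.

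Laminins are trimers of an alpha, a beta and a gamma chain that polymerise on the cell surface, and they form the basement membrane together with type IV collagen, nidogens and the proteoglycans perlecan and agrin. Cells hold on to this sheet through integrins, which are pairs of an alpha and a beta subunit, and through dystroglycan. In the testis the basement membrane lies between Sertoli cells and the peritubular myoid cells, which both contribute to it. The integrin of Itga6 and Itgb1 is also known from the ectoplasmic specialisation, the actin-rich junction by which rat Sertoli cells hold elongating spermatids.

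Neither these genes nor the transcriptome as a whole passed the test between the ages. In limma, 0 of the 14506 genes (0%) and 0 of the 30 members had a Benjamini-Hochberg adjusted p under 0.05, and the adjusted p of every member was 1. At an unadjusted p under 0.05 the count was 0 of 30 members, beside 2.97% of all genes, and the ranges of the ages overlapped for all 30. Of all genes 5.72% had no overlap, 2.74% being higher and 2.98% lower at 21 days. Of the members 14 were higher and 16 lower at 21 days. Their median log2 difference, 21 days minus 9 days, was -0.015, beside -0.0093 for all genes. The differences spanned -0.48 (Lama1) to 1.53 (Itga6). The members nevertheless varied a good deal among the arrays: the range over the 6 arrays had a median of 0.70 log2 units for the members and 0.39 for all genes. Differences of at least 1.5-fold were reached by 1 member higher at 21 days (1.08% of all genes), Itga6, and by 0 lower (0.441%). Itga6 was also the 1 member past 2-fold (0.427% of all genes).

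**Figure D1:**
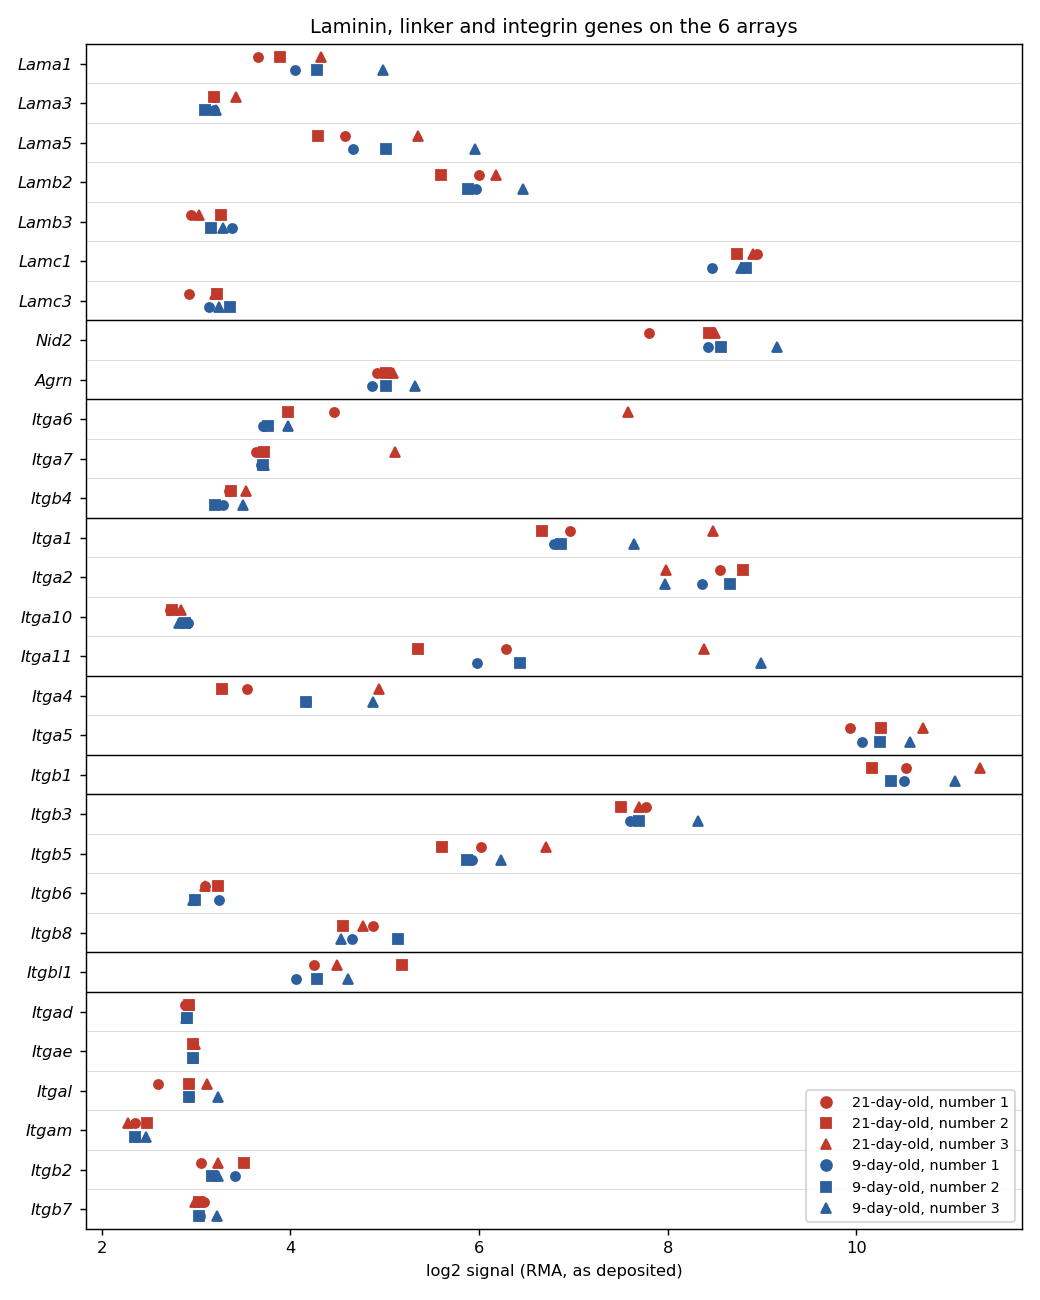
Log2 signal (x axis, RMA values as deposited) of the 30 genes on each of the 6 arrays, with 21-day-old arrays in red above 9-day-old arrays in blue and the array number given by the symbol. Genes stand in groups by role, from laminin chains at the top to leukocyte integrins at the bottom. The values of the ages overlap for all 30 genes, and Itga6, Itga7, Itga1, Itga11 and Itga4 each have a number 3 array far to the right.

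The cultures carried markers of more than Sertoli cells, and for smooth muscle markers array 3 was the highest at both ages. Of 14 Sertoli cell markers 12 were measured, and their mean log2 signal ran from 5.23 to 6.27 at 21 days and from 4.90 to 5.15 at 9 days. Among them Clu, a major secreted product, Gata4 and Wt1 lay at percentiles 97.5, 90.2 and 81.0 of all genes by mean signal, while Amh and the receptor gene Fshr lay at 32 and 20.5. Of these 12 genes 11 were higher at 21 days, and Sox9 was not analysed here. Markers of smooth muscle and peritubular myoid cells (7 of 8 measured) averaged 7.95 to 10.08 at 21 days and 8.70 to 10.30 at 9 days. The number 3 arrays exceeded the mean of the other arrays of their age by 1.80 (21 days) and 1.49 (9 days) in this list. Endothelial markers (6 of 7 measured) averaged 3.38 to 3.56 and 3.23 to 3.62, and macrophage and leukocyte markers (9 of 9) 3.46 to 3.52 and 3.42 to 3.47. Leydig cell markers (6 of 6) averaged 4.16 to 4.33 and 4.13 to 4.27, germ cell markers (5 of 6) 3.32 to 3.79 and 3.40 to 3.51, and fibroblast markers (4 of 4) 8.56 to 9.64 and 9.16 to 9.46. List means hid single genes of high signal. Star lay at percentile 99.4, while the other Leydig cell markers lay at 1.3 (Hsd17b3) to 47.2 (Insl3). Cd14 lay at 89.2, and the other macrophage and leukocyte markers at 11.1 (Adgre1) to 37.7 (Csf1r). RMA values have no zero, and in such bulk samples fewer cells of a type and less RNA per cell cannot be told apart.

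Among the laminin alpha chains, Lama1 and Lama5 were the lower ones at 21 days. Lama1, the alpha chain of the laminin of early embryonic basement membranes, had log2 signals of 3.65, 3.89 and 4.33 on 21-day-old arrays 1, 2 and 3, against 4.05, 4.28 and 4.99 on the 9-day-old arrays in the same order. Each older array lay below the younger array of its number, and the ages overlapped only through 21-day-old array 3, which was above 9-day-old arrays 1 and 2. The log2 difference was -0.48 ± 0.29 (SE, n = 3 each), or 0.715 of the younger level, and -0.21 without 9-day-old replicate 3.

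Lama5, the most widely distributed alpha chain of mature basement membranes, gave 4.58, 4.29 and 5.36 at 21 days, against 4.67, 5.01 and 5.96 at 9 days. Number 3 was the highest at each age, as it was for Lama1, and every older array was below its younger counterpart, though for number 1 only by -0.087. The difference was -0.47 ± 0.42 (SE, n = 3 each), and -0.098 without 9-day-old replicate 3. Lama3, an alpha chain of epithelial laminins, stayed near 3 log2 units throughout, at 3.19, 3.19 and 3.42 on the older arrays, against 3.19, 3.09 and 3.21 on the younger. Its difference of 0.10 ± 0.088 had a 95% interval of -0.11 to 0.32.

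None of the 4 beta and gamma chains differed by as much as Lama1 or Lama5. Lamb2, the beta chain of synapses and of kidney and muscle basement membranes, had 6.0, 5.59 and 6.18 at 21 days, against 5.96, 5.89 and 6.46 at 9 days. The older arrays 2 and 3 were the lower ones and number 1 was not, which gave -0.18 ± 0.21 (log2, SE). Lamc1, the gamma chain shared by most laminins, had 8.95, 8.74 and 8.90 at 21 days, against 8.47, 8.83 and 8.78 at 9 days. Its 6 values kept within 0.47 log2 units and placed it at percentile 94.8 of all genes by mean signal, with a difference of 0.17 ± 0.12 and a 95% interval of -0.12 to 0.46.

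Lamb3 and Lamc3 encode chains that, with the product of Lama3, have been placed at the rat ectoplasmic specialisation on the side of the spermatid. Lamb3 was at 2.95, 3.26 and 3.03 at 21 days, against 3.38, 3.16 and 3.28 at 9 days, and Lamc3 at 2.92, 3.22 and 3.20, against 3.13, 3.36 and 3.24. By mean signal both lay in the lower part of all genes, at percentiles 30.7 and 30.8, and no detection calls were used here. The differences were -0.19 ± 0.11 for Lamb3 and -0.13 ± 0.11 for Lamc3 (log2, SE). In all, 7 of the 9 laminin and linker genes were lower at 21 days, against 53.5% of all genes and 16 of the 30 members. Among the 7, Lamb2 and Agrn changed sign when arrays were left out, reaching 0.0013 and 0.063.

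The linkers differed from each other. Nid2, which encodes a nidogen that bridges laminin and type IV collagen, had log2 signals of 7.80, 8.44 and 8.50 at 21 days, against 8.43, 8.57 and 9.16 at 9 days. Every older array was below the younger array of its number, by -0.62, -0.13 and -0.66, and the ages overlapped only through the top of the older values and the bottom of the younger. The difference was -0.47 ± 0.27 (SE, n = 3 each), and -0.25 without either 9-day-old replicate 3 or 21-day-old replicate 1. Agrn, which encodes the heparan sulfate proteoglycan agrin, had 4.91, 5.02 and 5.08 at 21 days, against 4.87, 5.02 and 5.32 at 9 days. It differed by -0.062 ± 0.13, with a 95% interval of -0.38 to 0.25.

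Same-numbered arrays of the 2 ages tended to be high or low in the same genes, so the fit was repeated with the number as a replicate block. Then again 0 members and 0 of all genes (0%) passed an adjusted p under 0.05. At an unadjusted p under 0.05 there were 3 members lower at 21 days (4.45% of all genes) and 0 higher (3.29%), or 3 in either direction (7.73%). The 3 were Lama1 (unadjusted p = 0.0027 and adjusted p = 0.390 in limma), Nid2 (0.0152 and 0.521) and Lama5 (0.0218 and 0.561). Lower in all 3 pairs of arrays were 4 members, these and Lamc3, beside 14.4% of all genes, and higher in all 3 pairs were 3 members, Itga6, Itga2 and Itgb4, beside 10.7%. Neither count stood above that background. Smooth muscle markers had lower means at 21 days as well, 7 of 7 with a median log2 difference of -0.35. Without 9-day-old replicate 3, however, 5 of the 7 were higher (median 0.038), and without 21-day-old replicate 2 there were 4 (median 0.046). Their part in the Lama1, Lama5 and Nid2 values was not tested.

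**Figure D2:**
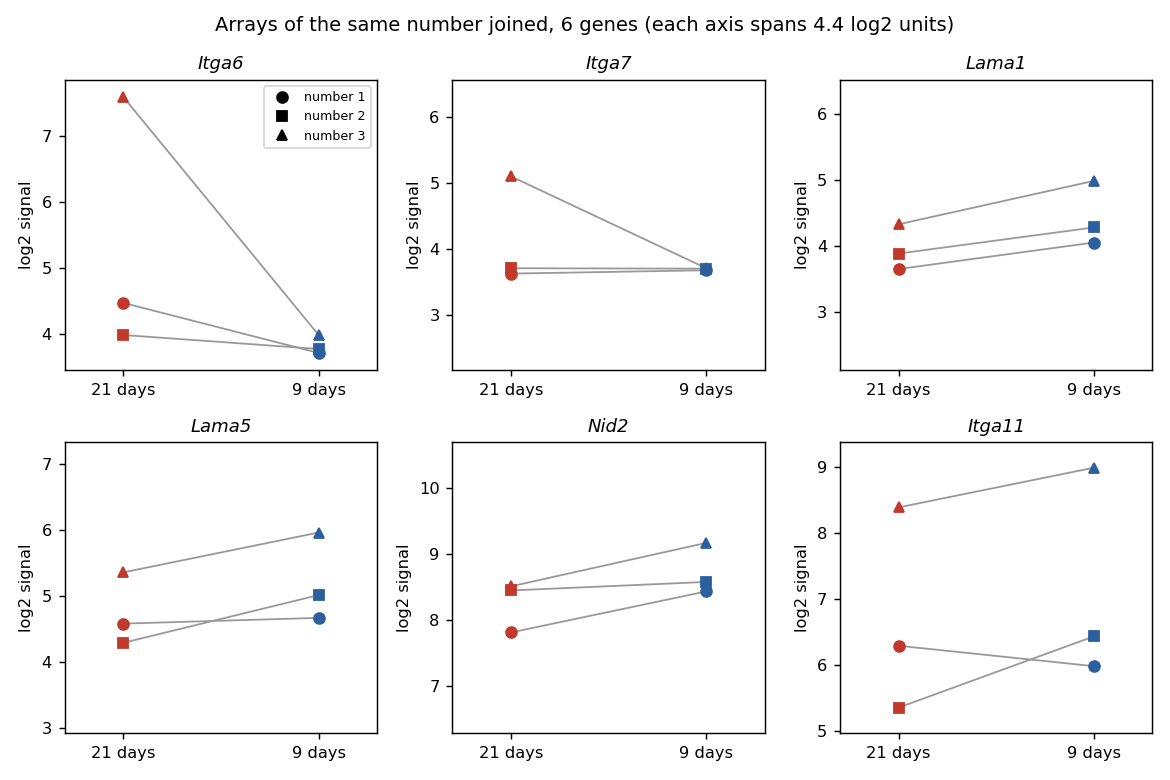
Log2 signal of 6 genes at 21 days (left, red) and 9 days (right, blue), with a grey line joining the arrays of the same number and all y axes of equal span. Lama1, Lama5 and Nid2 are lower at 21 days in each pair, by unequal amounts, whereas the differences of Itga6 and Itga7 sit mainly in the pair numbered 3, and the lines of Itga11 cross.

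Of the 3 integrin subunits grouped here as laminin-binding, 0 had an unadjusted p under 0.05, and the differences of Itga6 and Itga7 lay mostly in 1 array. Itga6, the alpha subunit of the main laminin receptors of epithelia, had log2 signals of 4.46, 3.98 and 7.58 at 21 days, against 3.71, 3.77 and 3.98 at 9 days. The 21-day-old array numbered 3 was far above the other 5, and the older arrays 1 and 2 were at or above the highest younger value. The mean was 5.34 ± 1.96 at 21 days and 3.82 ± 0.14 at 9 days (SD, n = 3 each), a difference of 1.53 ± 0.94 (SE) or 2.88-fold with an unadjusted p of 0.157 and an adjusted p of 1 in limma. Without 21-day-old replicate 3 it was 0.40, and without both arrays numbered 3 it was 0.49.

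Itga7, the laminin-binding alpha subunit best known from muscle, showed the same array alone. It had 3.63, 3.72 and 5.11 at 21 days, against 3.68, 3.71 and 3.72 at 9 days. The other 5 values lay within 0.1 log2 units, and without 21-day-old replicate 3 the difference of 0.45 ± 0.40 (SE) turned to -0.028. Itgb4, the beta subunit that pairs with Itga6 in hemidesmosomes, did not stand out on this array, at 3.35, 3.37 and 3.53 on the older arrays, against 3.29, 3.20 and 3.50 on the younger. In the same 21-day-old array Sertoli cell markers averaged 6.27 (5.23 and 5.65 on 21-day-old arrays 1 and 2) and smooth muscle markers 10.08 (8.62 and 7.95). In it Inha was at 6.58 (4.11 and 5.43 in the others) and Shbg at 5.66 (3.22 and 3.88). Both encode secreted Sertoli cell products. Of the 12 Sertoli cell markers 9 were highest on this array, beside 18.2% of all genes. The remaining ones, Cldn11, Aard and Rhox5, were highest on 21-day-old array 2. The muscle filament gene Des was at 10.53 on array 3 (7.31 and 7.12). Germ cell markers averaged 3.79 on that array (3.32 and 3.40 on arrays 1 and 2), with 5 of 5 highest there, beside 18.2% of all genes. Of these, Ddx4, Dazl, Sycp1 and Sycp3 had low signals, at percentiles 3.2 to 13.2 by mean signal, and Uchl1 lay at 90.4. Fibroblast markers averaged 8.56 (9.20 and 9.64), although Col1a1 among them was higher on that array, at 11.76 (11.59 and 11.28). The part of these cell types in the Itga6 and Itga7 values was not tested.

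**Figure D3:**
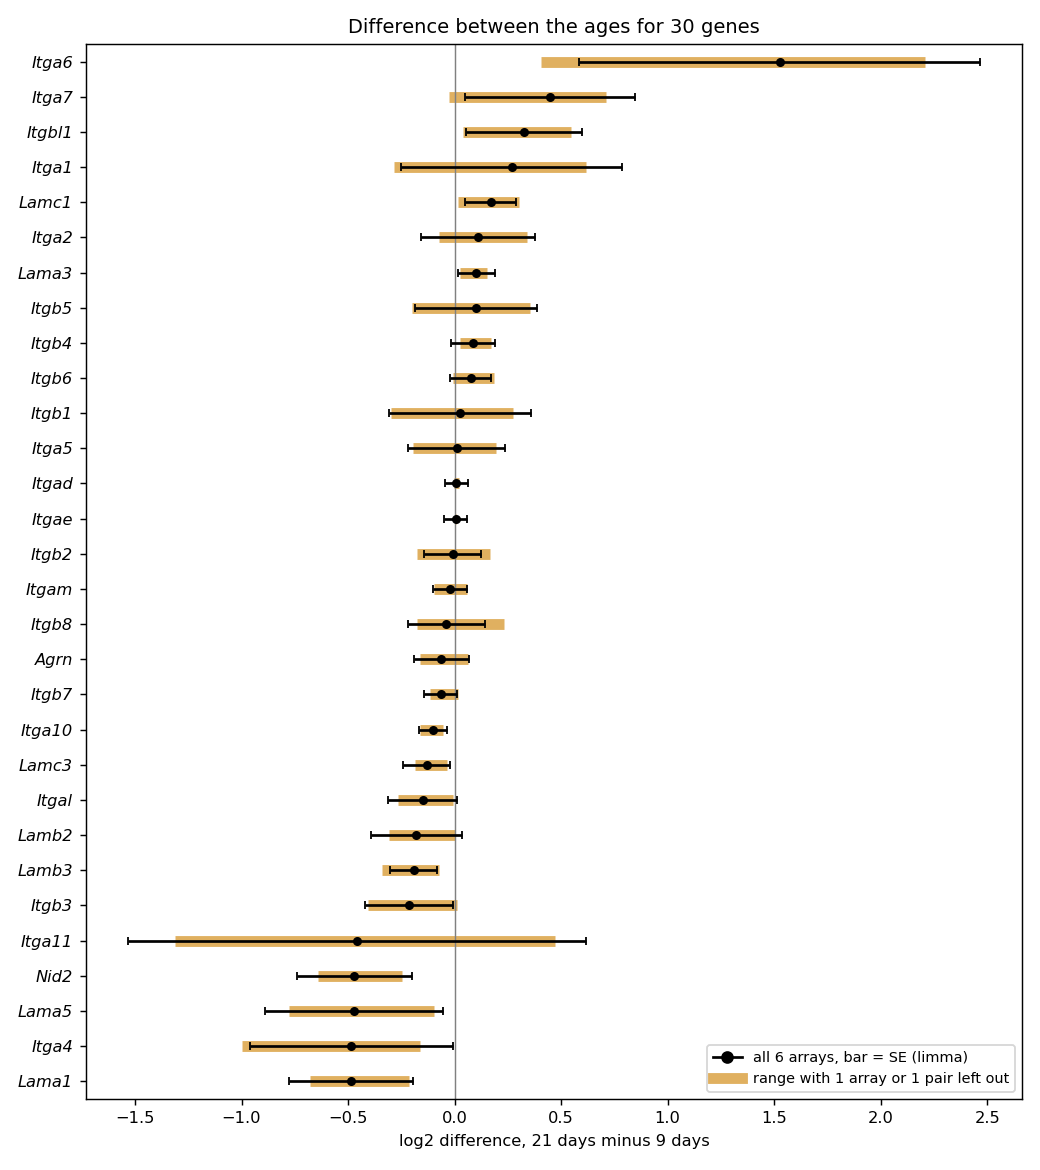
Log2 difference, 21 days minus 9 days, for the 30 genes, sorted from highest to lowest, with points for all 6 arrays, black bars for the SE from limma and ochre bands for the range when 1 array or 1 pair of arrays of the same number was left out. The band of Itga6 runs from 0.40 to 2.21, those of Lama1, Lama5, Nid2 and Itga4 stay below 0, and 16 of the 30 bands cross 0.

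Subunits that bind collagen varied in opposite ways among the arrays, and little of that went with age. Itga11, which binds fibrillar collagen and is known from fibroblasts, had log2 signals of 6.29, 5.35 and 8.39 at 21 days, against 5.98, 6.43 and 8.99 at 9 days. Both arrays numbered 3 were more than 2 log2 units above the others of their age, and the difference of -0.46 ± 1.07 (SE) ran from -1.31 to 0.47 when arrays were left out. Itga1, a receptor of type IV and other collagens with high levels in smooth muscle, had 6.96, 6.67 and 8.48 at 21 days, against 6.79, 6.87 and 7.64 at 9 days, so number 3 was again the highest at each age. The difference of 0.27 ± 0.52 turned to -0.29 without 21-day-old replicate 3. Itga2, the alpha subunit of a collagen receptor of epithelia and platelets, went the other way, at 8.55, 8.80 and 7.98 on the older arrays, against 8.36, 8.67 and 7.97 on the younger, so number 3 was the lowest at each age. It differed by 0.11 ± 0.27. Itga10, known from cartilage, lay near the lower quartile and differed by -0.10 ± 0.065.

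Receptors of fibronectin included a gene among the strongest signals. Itga5, the alpha subunit of the classic fibronectin receptor, was at percentile 98.8 by mean signal and had 9.94, 10.26 and 10.71 at 21 days, against 10.06, 10.25 and 10.57 at 9 days. The difference was 0.0095 ± 0.23 (log2, SE), with a 95% interval of -0.55 to 0.57, and its sign turned to -0.016 when arrays were centred on their medians. Itga4, which binds fibronectin and the endothelial ligand encoded by Vcam1, had 3.54, 3.27 and 4.94 at 21 days, against 4.16, 4.16 and 4.88 at 9 days. Arrays 1 and 2 were lower at 21 days and number 3 was not, which gave -0.48 ± 0.48 (log2, SE). Without 21-day-old replicate 3 the difference was -0.997, with an unadjusted p of 0.0132 and an adjusted p of 0.875 in limma. Without both arrays numbered 3 the difference was -0.76, with an unadjusted p of 0.0039 and an adjusted p of 0.982 in limma.

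The shared beta subunit did not differ beyond its spread. Itgb1, which pairs with most of the alpha subunits here, was at percentile 99.1 and had log2 signals of 10.52, 10.17 and 11.31 at 21 days, against 10.51, 10.37 and 11.05 at 9 days. The values of the ages interleaved, with number 3 the highest of each, and the difference of 0.025 ± 0.33 (SE) had a 95% interval of -0.79 to 0.84. It was -3.9e-05 after centring on medians. The beta subunits that pair with the alpha subunit of vitronectin receptors differed by -0.21 ± 0.21 (Itgb3), 0.10 ± 0.29 (Itgb5), 0.075 ± 0.098 (Itgb6) and -0.039 ± 0.18 (Itgb8). Their values overlapped in each case. Itgbl1, whose product resembles the stalk of a beta subunit, differed by 0.33 ± 0.27, with its highest value of 5.18 on 21-day-old array 2.

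The leukocyte integrins gave low signals at both ages. Itgad, Itgae, Itgal, Itgam, Itgb2 and Itgb7 had mean signals at percentiles 10.7 (Itgam) to 32.5 (Itgb2). Their differences ran from -0.15 ± 0.16 for Itgal, the alpha subunit of the lymphocyte receptor for the product of Icam1, to 0.0080 ± 0.055 for Itgad. Between them lay 0.0059 ± 0.054 for Itgae, -0.0084 ± 0.13 for Itgb2, -0.022 ± 0.079 for Itgam and -0.066 ± 0.078 for Itgb7. Itgad and Itgae, at 0.0080 and 0.0059, changed sign under quantile normalization (-0.0091 and -0.011) and median centring (-0.017 and -0.019).

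A subset of these genes was high on array number 3 at both ages, by a criterion chosen after values were seen. In 6 of the 30 members the array numbered 3 exceeded the mean of the other arrays of its age by at least 0.5 log2 units at both ages, against 3.03% of all genes. They were Itga11 (by 2.56 at 21 days and 2.78 at 9 days), Itga1 (1.66 and 0.81), Itga4 (1.54 and 0.71), Itgb1 (0.96 and 0.61), Lama5 (0.92 and 1.12) and Lama1 (0.56 and 0.82). Only Itga2 was lower by as much at both ages (-0.70 and -0.54), as were 2.37% of all genes. The first criterion was not particular to the members (20%). Among the related lists described below, 9 of 30 genes of the integrin adhesion complex (30%) met it. So did 15.4% of other basement membrane components, 14.3% of other integrin ligands and 11.1% of the dystrophin complex. The shares were 10% for other laminin receptors and 0% for dystroglycan glycosylation. All 7 measured smooth muscle markers met the first criterion, with 1.97 and 2.14 for the heavy chain gene Myh11 and 3.31 and 1.59 for Des, and 1 of the 12 Sertoli cell markers did, Tf (2.59 and 0.56). Fibroblast markers as a list were lower in number 3, by -0.87 and -0.27, but Col1a1 among them was higher, by 0.33 and 0.54. Itga6 and Itga7 followed another pattern, with 3.36 and 0.24 for Itga6 and 1.43 and 0.019 for Itga7. What the number stands for is not stated in the labels, and the part of smooth muscle cells in these values was not tested.

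**Figure D4:**
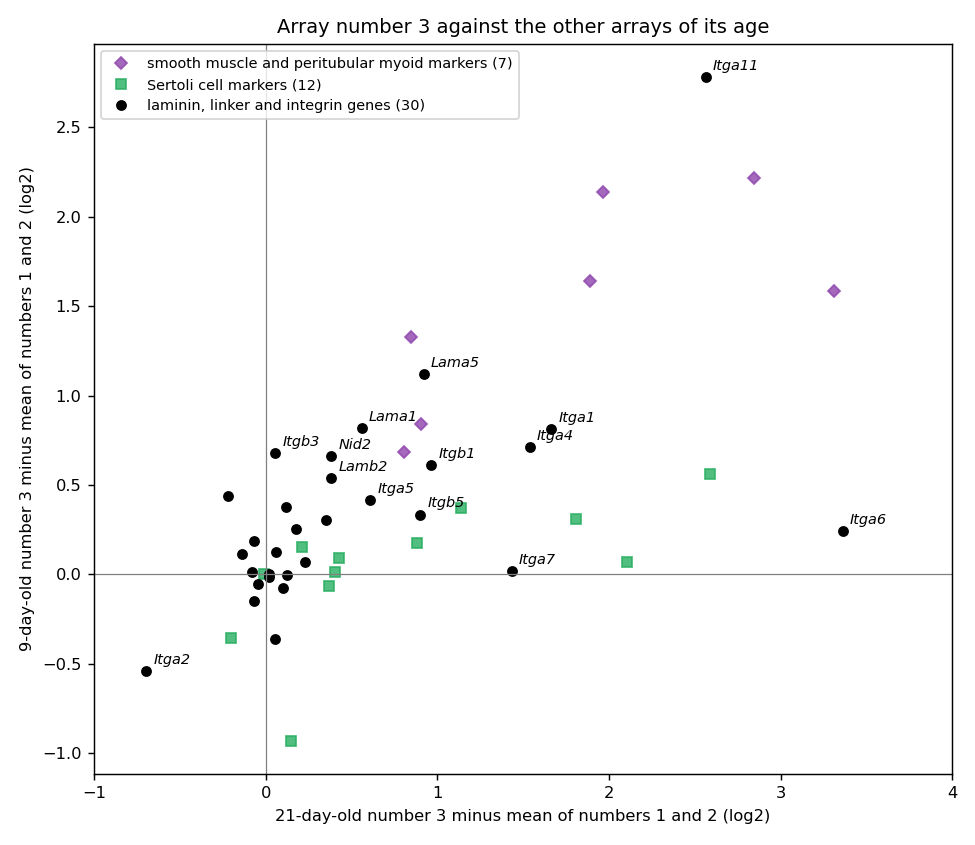
Log2 signal of array number 3 minus the mean of arrays 1 and 2, at 21 days (x axis) and at 9 days (y axis), for the 30 genes (black), 7 smooth muscle and myoid markers (purple) and 12 Sertoli cell markers (green). Itga11, Itga1, Itga4, Itgb1, Lama5 and Lama1 lie up and to the right, as do the smooth muscle markers. Lama1 at 21 days (0.56) and Itgb1 at 9 days (0.61) are below all 7 of those markers (from 0.81 and 0.69). Itga2 lies in the opposite corner, and Itga6 and Itga7 lie near the x axis. Itga6 (3.36 at 21 days) is farther right than any of the 12 Sertoli cell markers (up to 2.59).

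Promoter sequence is shown for genes of this subset, which were chosen only for a high array number 3 at both ages. They did not all move together between arrays 1 and 2. The 200 bases before the transcription start in RefSeq (build GRCr8) are printed for the 4 of them whose listed start is the outer end of the gene, each on its own strand and with GC boxes (GGGCGG on either strand, bound by Sp factors) in capitals. Itga11 lies at chr8:72041232-72041431 (+), Itgb1 at chr19:73602077-73602276 (+), Lama1 at chr9:115139348-115139547 (+) and Lama5 at chr3:187695975-187696174 (-).
Itga11: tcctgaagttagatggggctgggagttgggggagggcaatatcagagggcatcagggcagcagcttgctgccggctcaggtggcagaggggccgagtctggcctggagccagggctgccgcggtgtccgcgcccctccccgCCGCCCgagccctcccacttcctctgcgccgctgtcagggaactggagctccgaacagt
Itgb1: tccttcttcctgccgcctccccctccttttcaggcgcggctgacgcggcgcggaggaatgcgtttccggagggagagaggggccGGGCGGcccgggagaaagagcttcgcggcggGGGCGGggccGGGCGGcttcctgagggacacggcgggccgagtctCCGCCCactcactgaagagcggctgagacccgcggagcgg
Lama1: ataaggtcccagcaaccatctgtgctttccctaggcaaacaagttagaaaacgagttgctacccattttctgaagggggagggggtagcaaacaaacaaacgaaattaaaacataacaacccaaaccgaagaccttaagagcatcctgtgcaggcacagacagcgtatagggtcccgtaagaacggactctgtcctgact
Lama5: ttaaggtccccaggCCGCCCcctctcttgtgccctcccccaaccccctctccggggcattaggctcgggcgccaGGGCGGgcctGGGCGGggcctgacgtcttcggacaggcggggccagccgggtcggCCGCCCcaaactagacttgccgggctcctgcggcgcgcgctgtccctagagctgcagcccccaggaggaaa
Itgb1 and Lama5 each held 4 GC boxes in this window, Itga11 held 1 and Lama1 held 0. GC content was 73.5%, 73%, 68.5% and 47% for Itgb1, Lama5, Itga11 and Lama1. Of the 30 members 21 matched a RefSeq promoter, and 10 of these held a GC box, beside 30.4% of 27457 rat promoters. Their median GC content was 59%, beside 52.5% for all. The CArG box, the element of serum response factor known from smooth muscle genes, was found on either strand in 1 of the 21, Itgb6, and in 1.14% of all promoters. AP-1 elements (TGANTCA) were found in Lama3 alone, beside 4.98% of all, CCAAT boxes (CCAAT) in Itgb8 and Lamb3 (29.4%), TATA boxes (TATAAA) in Itgb7 (10.5%) and E-boxes (CANNTG) in 13 of the 21 (56.6%). All motifs were searched on both strands and their matches may overlap. A match describes letters in this window, and no binding was measured.

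Genes around the members were read from lists of related roles, none of which had a gene past an adjusted p of 0.05. Of 35 genes of the integrin adhesion complex 30 were measured. At 21 days 23 of them were lower and 7 higher (median log2 difference -0.036), while 53.5% of all genes were lower. This split hung on 9-day-old replicate 3, since without that array most of the 30 were higher at 21 days. The differences were small, with a median absolute value of 0.064 for this list and 0.076 for all genes. At an unadjusted p under 0.05 this list held 1 gene higher (1.45% of all genes) and 0 lower (1.52%). That gene, Ptk2b, encodes a kinase related to focal adhesion kinase. It was at 7.57, 8.09 and 7.66 at 21 days, against 7.17, 7.17 and 6.67 at 9 days, without overlap, and differed by 0.77 ± 0.20 (SE, unadjusted p = 0.00849, adjusted p = 1 in limma). Its relative Ptk2 differed by -0.11 ± 0.14. The adaptor genes Tln1, Vcl, Ilk and Parva differed by -0.15, -0.10, -0.0029 and -0.21. Without 9-day-old replicate 3 the differences were 0.014, 0.17, 0.065 and -0.039 in the same order. The list mean was 7.56 to 8.01 at 21 days and 7.59 to 8.0 at 9 days, highest in number 3 at both ages.

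Other basement membrane components numbered 13 of 23 measured, 6 higher and 7 lower, with a median difference of -0.10. Tinagl1, which encodes a matricellular protein of basement membranes, had 7.20, 6.87 and 6.79 at 21 days, against 7.40, 7.40 and 8.01 at 9 days. It was lower on every older array, without overlap, and differed by -0.65 ± 0.21 (log2, SE, unadjusted p = 0.0196 in limma). Col7a1, the collagen of anchoring fibrils, was at 5.57, 5.93 and 5.78, against 5.56, 5.37 and 5.44, a difference of 0.30 ± 0.11 (unadjusted p = 0.0371). Fbln1, which encodes fibulin, differed by -0.32 ± 0.16.

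Other integrin ligands, 14 of 17 measured, split evenly into 7 higher and 7 lower genes around a median of -0.0025. Vcam1, the ligand of integrins with Itga4, was at 3.94, 3.83 and 4.28 at 21 days, against 3.32, 3.56 and 3.50 at 9 days. It did not overlap between the ages and differed by 0.56 ± 0.14 (SE, unadjusted p = 0.00739, adjusted p = 1 in limma), while its receptor gene Itga4 differed by -0.48. Icam1, the ligand of leukocyte integrins, differed by -0.57 ± 0.28 and Vtn, which encodes vitronectin, by -0.18 ± 0.13. The dystrophin complex (9 of 14 measured, 4 higher and 5 lower, median -0.014), the enzymes that glycosylate dystroglycan (6 of 12, 2 higher and 4 lower, median -0.045) and other laminin receptors (10 of 11, 6 higher and 4 lower, median 0.066) had 0 genes at an unadjusted p under 0.05. In these the lowest p values were those of Sspn (-0.48 ± 0.28), B4gat1 (-0.13 ± 0.07) and Plec, which encodes plectin (-0.28 ± 0.15).

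**Figure D5:**
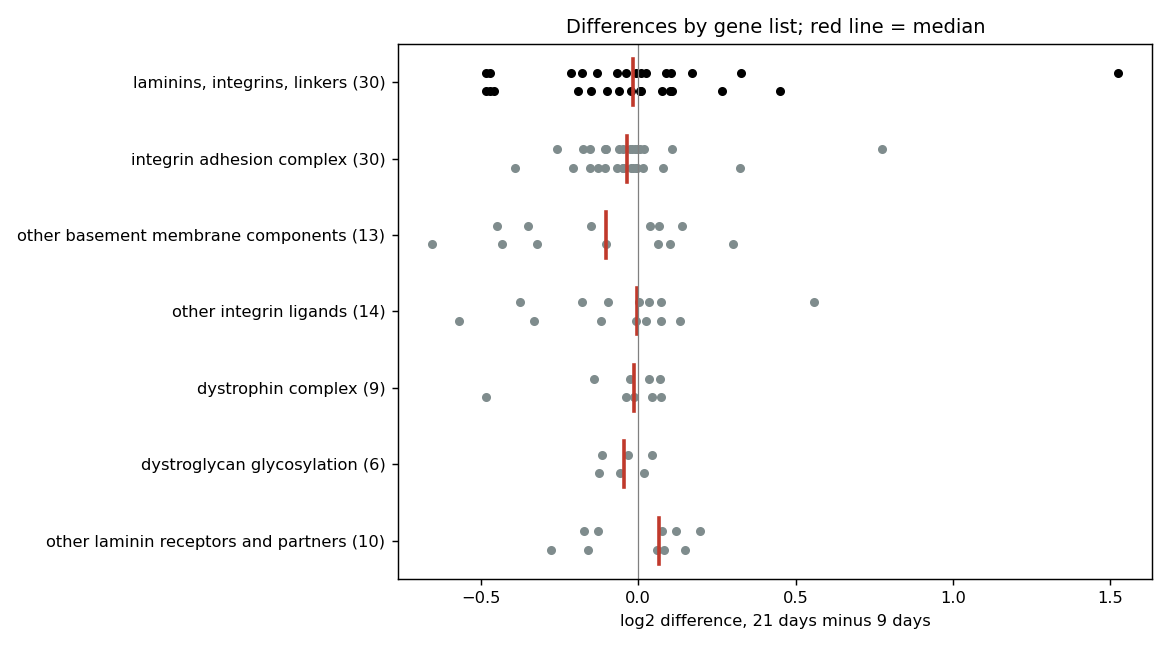
Log2 difference, 21 days minus 9 days, for each gene of the members (black) and of 6 related lists (grey), with the number of measured genes in brackets and a red line at the median. The medians lie between -0.10 and 0.066, with Itga6 at 1.53 and Ptk2b at 0.77 the points farthest to the right.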

How the data were processed

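The data were 6 Affymetrix arrays of total RNA, 3 from cultures of 21-day-old and 3 of 9-day-old rats, grouped and numbered by their titles. The series is typed as binding by array, but the labels describe expression. The authors deposited log2 values. RMA is the tool that the submitters' processing notes name; it corrects background, normalizes arrays by quantiles and summarises probes. Its version is not given in the sources used here, and no detection calls or scan batches were analysed here. The number of arrays limits the precision.

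Probe sets were named through the platform annotation: 15310 of 29214 had 1 gene, 323 several and 13581 none there. Entrez numbers of 15279 matched RefSeq (GRCr8), which changed 0 symbols. The probe set of highest mean stood for a gene, which left 14506 genes. No member had more than 1. Another probe set, naming Lamc3 and a second gene, was left out. Ages were compared with limma 3.58.1 in R 4.3.3 (lmFit, eBayes, 21 days minus 9 days, no covariates, two-sided, Benjamini-Hochberg over all genes). The fit was tested on simulated arrays that varied independently, which does not show its power for these data. Percentiles rank a gene's mean log2 signal among the 14506 and are only a rough guide, since probe sets differ in response. Intervals are 95% from the same fit. Figures used matplotlib 3.10.9.

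Arrays of the same number deviated together: the deviations from age means correlated across genes at 0.439, 0.549 and 0.673, above the limit of 0.1, so the numbers, given by the titles, were taken as pairs. The members and lists were chosen with earlier results of these data known. By rule, every member is named, with values on every array for differences of at least 0.5, an unadjusted p under 0.05 or no overlap, and for Lama1, Lama3, Lama5, Lamb2, Lamb3, Lamc1, Lamc3, Itga6, Itgb1, Nid2 and Agrn, and up to 3 genes of lowest p per list. Array values of Itga1, Itga2, Itga4, Itga5, Itga7, Itga11, Itgb4 and of marker genes, the adaptor genes of the adhesion list, and the criterion for arrays numbered 3 were chosen after values were seen. Alternatives were the replicate block, filters on mean signal, other scalings, probe set means, a trended robust prior, and leaving out each array or each number.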

Additional observations from a re-analysis of the deposited data

How the results depend on the processing

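The count of members past an adjusted p under 0.05 was 0 of 30, and of all genes 0, under all 16 alternatives. With the replicate block it was 0 as well. The number of members at an unadjusted p under 0.05 was then 3 (7.73% of all genes), against 0 in the fit without the block (2.97%). This number was 1 without 21-day-old replicate 2 (Lamb3), 1 without 21-day-old replicate 3 (Itga4), 1 without both arrays numbered 2 (Lamb3) and 2 without both arrays numbered 3 (Itga4 and Lama1), and 0 under the others. Between 1 and 6 members had no overlap between the ages when arrays were left out, against 0 with all 6, where fewer values make overlap rarer by construction. With arrays left out, the shares of all genes without overlap or at an unadjusted p under 0.05 were not counted. The member counts in those settings therefore have no background and are not read as results about the members. The median log2 difference of the members lay between -0.12 (without 21-day-old replicate 3) and 0.0084 (without 9-day-old replicate 3). In an alternative chosen after seeing the data, the median of the smooth muscle markers lay between -0.97 (without 21-day-old replicate 3) and 0.046 (without 21-day-old replicate 2). For 14 members no setting with arrays left out reversed the sign of the log2 difference. Among these, the difference of Itgae fell to 0 without both arrays numbered 3. For the other 16 the lowest and highest differences with arrays left out were -1.31 and 0.47 (Itga11), -0.29 and 0.62 (Itga1), -0.028 and 0.71 (Itga7), -0.30 and 0.27 (Itgb1), -0.41 and 0.011 (Itgb3), -0.20 and 0.35 (Itgb5), -0.18 and 0.23 (Itgb8), -0.071 and 0.34 (Itga2), -0.19 and 0.19 (Itga5), -0.31 and 0.0013 (Lamb2), -0.16 and 0.063 (Agrn), -0.18 and 0.16 (Itgb2), -0.0080 and 0.19 (Itgb6), -0.12 and 0.018 (Itgb7), -0.094 and 0.060 (Itgam) and -0.0033 and 0.022 (Itgad). Centring on medians turned Itga5 (-0.016), Itgad (-0.017), Itgae (-0.019) and Itgb1 (-3.9e-05), and quantile normalization turned Itgad (-0.0091) and Itgae (-0.011). The cause was not tested. The filters removed 3 and 17 members of lower signal, whose results were therefore not recomputed there. With no detection calls, a small difference at a signal near the lower quartile does not show equal expression.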
